A study of Mus musculus with 28 samples.

Results

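Ccr7, Klf2, S1pr1, S1pr5 and Cx3cr1, 5 genes that govern how T cells enter lymph nodes, leave them and travel as effector cells, were followed in Th17 and Th1 cells transferred into mice. They were chosen by name, each through the probe set that carries its symbol and no other. They are 5 of the 19938 genes measured in this way, each had 1 such probe set, and all 5 were kept whatever their level.

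The cells were TRP1-specific CD4+ T cells of the strain BwTRP1 Rag1-/-, whose transgenic T cell receptor recognises TRP1, a protein of melanocytes, and every group shares the Rag1 deficiency. All were cultured for 7 days with irradiated C57/B6 splenocytes and TRP1 peptide, and received IL-2 from the third day on. Th17 cultures held IL-1, IL-6, IL-21, TGFβ2, later IL-23, and antibodies to IL-2, IL-4 and IFN-γ, while Th1 cultures held IL-12 and an antibody to IL-4. Polarised Thy1.2+ cells were given to sublethally irradiated (5 Gy) B6.PL mice, which carry Thy1.1, and were recovered on day 5 or day 15 from spleens and inguinal lymph nodes by CD4 enrichment and sorting for Thy1.2. Each recovered sample was divided into a part restimulated through CD3 and CD28 for 2 h and a part left without. Day 5 held 3 Th17 and 3 Th1 samples, day 15 held 4 Th17 and 2 Th1 samples, and the cultures of day 0, which never entered a mouse, gave 1 array for each type and condition. Whether samples are from separate mice is not stated, and p-values may therefore rest on technical spread alone, with precision set by the few arrays.

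CCR7 on naive and central memory T cells responds to chemokines of the lymph node and draws the cells in across high endothelial venules. Exit depends on S1PR1, which senses the higher sphingosine 1-phosphate (S1P) of blood and lymph, and CD69 pulls S1PR1 from the surface of freshly activated cells. The transcription factor KLF2 drives the S1pr1 gene in resting T cells and is itself kept up by FOXO1, while S1PR5 and the fractalkine receptor CX3CR1 mark effector cells that circulate outside lymph nodes, in mouse CD8+ T cells downstream of T-bet and ZEB2.

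RefSeq promoter windows, 250 bases before to 50 bases after the gene start on build GRCm38.p6, were given for 3 of the 5 genes. Those of S1pr5 (chr9:21248394-21248693, minus strand) and Cx3cr1 (chr9:120068247-120068546, minus strand) are shown because these genes had the same order of group means after transfer, and both lie on chromosome 9. Both are written 5′ to 3′ along the gene, with capitals marking CACCC, the core bound by KLF factors, or GGGTG, the same core on the other strand.
S1pr5: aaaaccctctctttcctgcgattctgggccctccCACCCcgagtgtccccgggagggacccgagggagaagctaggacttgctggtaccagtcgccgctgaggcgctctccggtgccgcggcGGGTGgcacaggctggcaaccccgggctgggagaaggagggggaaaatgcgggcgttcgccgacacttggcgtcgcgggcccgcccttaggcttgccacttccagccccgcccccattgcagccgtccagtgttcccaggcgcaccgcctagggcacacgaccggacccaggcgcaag
Cx3cr1: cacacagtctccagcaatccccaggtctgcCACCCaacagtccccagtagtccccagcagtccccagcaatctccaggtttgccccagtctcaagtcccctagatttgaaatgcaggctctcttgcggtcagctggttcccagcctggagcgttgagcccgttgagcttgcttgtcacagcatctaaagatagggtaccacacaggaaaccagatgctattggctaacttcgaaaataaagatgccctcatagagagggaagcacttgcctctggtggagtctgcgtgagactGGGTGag
The S1pr5 window held the core at 216 bases upstream of the start on the gene's strand and at 128 bases upstream on the other. The Cx3cr1 window held it at 220 bases upstream and, on the other strand, at base 44 after the start, and the Klf2 window held it once, 19 bases upstream on the other strand. CACCC on either strand occurs in 57.5% of all 32851 promoter windows of this length, so these matches are common. The forkhead sequence GTAAACA (3.65% of windows), the T-box core TCACAC (14.5%) and the E-box CAGGTG (20.2%), each searched on both strands, had no match in the 3 windows, and no matches overlapped.

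Values are log2 values normalised by the authors with RMA, so a difference of 1 is a 2-fold change, and array medians lay between 6.77 and 7.09. T cell markers were high throughout: the mean of 9 was 12.04 to 12.42 on every array. Most of these are not particular to CD4+ cells, so this mean does not tell CD4+ from CD8+ T cells. The mean of 2 CD8 T cell markers was 8.22 and 8.08 in the unstimulated and restimulated Th1 cultures of day 0, against 7.12 to 7.88 on all other arrays. Markers of other cells differed between groups. The mean of 5 natural killer (NK) cell markers was 6.09 and 6.38 in unstimulated Th1 samples of day 15, 5.67 and 5.90 in the restimulated ones, and 4.80 to 5.39 on all other arrays after transfer. The mean of 14 monocyte and neutrophil markers was higher in Th17 than in Th1 samples in every setting after transfer, without overlap. In unstimulated parts it was 7.42 to 8.77 against 6.52 to 6.84 on day 5, and 7.07 to 7.83 against 6.63 to 6.64 on day 15. In restimulated parts it was 6.80 to 8.18 against 6.39 to 6.44 on day 5, and 6.70 to 7.37 against 6.50 to 6.66 on day 15. Th17 sample 1 of day 5 was highest, at 8.77 and 8.18 in its unstimulated and restimulated parts, against 6.39 to 7.83 elsewhere after transfer. The mean of 3 erythroid markers was 8.02 to 9.61 on day 15 against 6.66 to 6.84 on day 5. Endothelial markers stayed between 6.48 and 6.99 on all 28 arrays. Whether other cells contribute to a gene's value was not tested, and in sorted bulk samples fewer cells expressing a gene and less RNA per cell cannot be told apart.

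**Figure D1:**
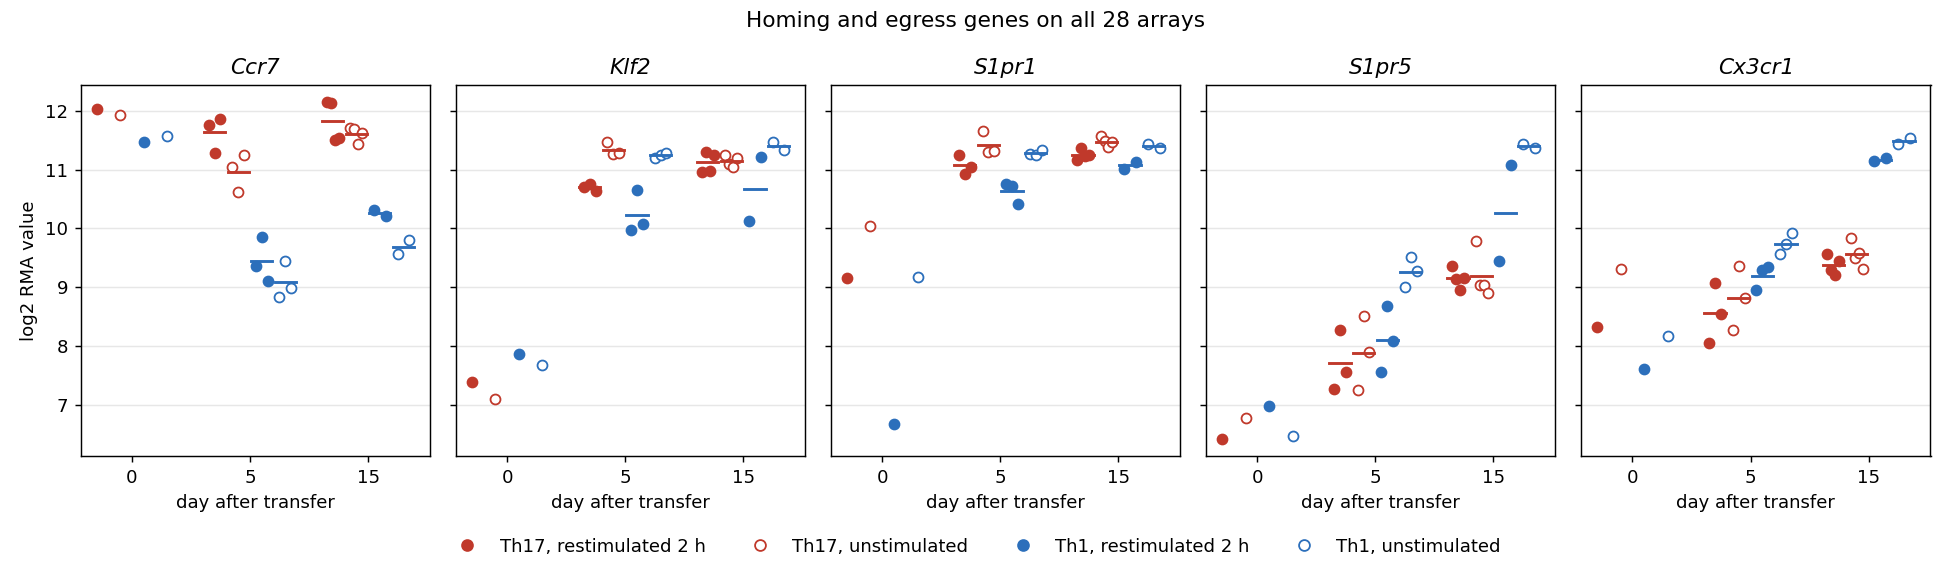
Log2 RMA values (vertical axis) of the 5 genes on each of the 28 arrays by day after transfer, with filled circles for restimulated and open circles for unstimulated parts, red for Th17 and blue for Th1, and bars for group means on days 5 and 15. Ccr7 lay between 10.62 and 12.15 in Th17 cells and between 8.83 and 10.31 in Th1 cells after transfer, while S1pr5 and Cx3cr1 were highest in unstimulated Th1 cells of day 15.

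Ccr7 (chr11:99144199-99155077, GRCm38.p6) was higher in Th17 cells in all 4 settings after transfer. On day 5 the unstimulated parts read 11.04, 10.62 and 11.24 in Th17 cells, against 8.83, 9.44 and 8.99 in Th1 cells. On day 15 they read 11.70, 11.69, 11.43 and 11.62 in Th17 cells, against 9.57 and 9.80 in Th1 cells. No Th17 array overlapped a Th1 array on either day. Restimulated parts gave 11.76, 11.28 and 11.86 in Th17 cells on day 5, against 9.36, 9.86 and 9.10 in Th1 cells, and 12.15, 12.13, 11.50 and 11.53 in Th17 cells on day 15, against 10.31 and 10.21 in Th1 cells. The 2 types again stood apart. The difference was 3.68-fold in unstimulated cells of day 5 (log2 1.88 ± 0.21 SE, adjusted p = 2.27e-06) and 3.81-fold on day 15 (1.93 ± 0.22, adjusted p = 4e-06). After restimulation it was 4.57-fold on day 5 (2.19 ± 0.21, adjusted p = 1.7e-07) and 2.96-fold on day 15 (1.57 ± 0.22, adjusted p = 6.57e-05). All 4 differences stayed called under every alternative run, including each left-out array.

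Ccr7 also differed with time, by less. Unstimulated Th17 cells were 1.56-fold higher on day 15 than on day 5 (log2 0.64 ± 0.20, adjusted p = 0.0396), and restimulated Th1 cells were 1.77-fold higher (0.82 ± 0.23, adjusted p = 0.0174). In unstimulated Th1 cells (0.59, adjusted p = 0.0934) and restimulated Th17 cells (0.19, adjusted p = 0.593) the test was not passed. Neither time call was stable. In Th17 cells it was lost without sample 1 or 2 of day 5 or sample 1, 2 or 4 of day 15 (log2 0.47 to 0.68, adjusted p up to 0.2), and with all arrays under median centring, a trended prior, the replicate block and the erythroid covariate (0.56 to 0.67, adjusted p 0.0599 to 0.546). In Th1 cells it was lost without sample 1 or 3 of day 5 or either sample of day 15 (0.65 to 0.87, adjusted p up to 0.1), under array weights, the replicate block, the compared groups alone and the erythroid covariate (0.65 to 0.89, adjusted p 0.0609 to 0.499), and was -0.05 (adjusted p = 0.994) with the NK covariate. The unstimulated Th1 difference was called without sample 2 of day 5 (0.77, adjusted p = 0.0382) and in a model of the compared groups alone (0.59, adjusted p = 0.0158).

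Klf2 (chr8:72319062-72321654) did not separate the types but was lower after restimulation in 3 of 4 settings. In Th1 cells of day 5 the restimulated parts read 9.98, 10.66 and 10.07, against 11.20, 11.24 and 11.28 in the unstimulated parts. Every restimulated value lay below every unstimulated one, and the difference was 2.01-fold (log2 -1.01 ± 0.18, adjusted p = 0.000807). In Th17 cells of day 5 they read 10.71, 10.76 and 10.64, against 11.46, 11.27 and 11.28 unstimulated, again without overlap, a 1.55-fold decrease (-0.63 ± 0.18, adjusted p = 0.0342). That call was lost whichever of the 6 arrays was left out (-0.57 to -0.67, adjusted p 0.0578 to 0.146) and with the NK or the monocyte and neutrophil covariate (-0.55 each, adjusted p = 0.0671 and 0.116).

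On day 15 the Klf2 response to restimulation was uneven. The 2 restimulated Th1 parts read 10.12 and 11.21, against 11.46 and 11.34 unstimulated. One part was thus far below the other, which lay just under the unstimulated pair. The difference was 1.67-fold (log2 -0.74 ± 0.23, adjusted p = 0.048), and the call was lost without unstimulated sample 1 or 2 (adjusted p = 0.231 and 0.147) or restimulated sample 1 (-0.19, adjusted p = 0.688), and under 6 further settings with all arrays (-0.38 to -0.80, adjusted p 0.0583 to 0.67, the NK covariate giving -0.38). Without restimulated sample 2 it was -1.28 (adjusted p = 0.000277). Th17 cells of day 15 read 10.96, 11.30, 10.97 and 11.25 after restimulation, against 11.24, 11.10, 11.04 and 11.19 without it. These groups overlapped, with a difference of -0.02 and a 95% confidence interval of -0.35 to 0.31 on the log2 scale (adjusted p = 0.939). Whether the restimulation effect in Th17 cells differed between the days was tested directly, at 0.61 ± 0.24 (adjusted p = 0.233), and did not pass.

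Between the types, Klf2 gave log2 differences (Th17 minus Th1) of 0.10 and -0.26 in unstimulated cells of day 5 and day 15, and of 0.47 and 0.46 in restimulated cells, none of which passed the test (adjusted p 0.212 to 0.921). The restimulated value of day 15 turns on 1 array. Without Th1 sample 2 it was 1.00 (adjusted p = 0.00079) and without Th1 sample 1 it was -0.08 (adjusted p = 0.861). On day 5 the restimulated difference was called without Th1 sample 2 (0.68, adjusted p = 0.0403) and, with all arrays, under array weights (0.54, adjusted p = 0.0265).

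S1pr1 (chr3:115710433-115715055), the exit receptor, was at nearly the same level in all unstimulated groups after transfer. These read 11.65, 11.29 and 11.31 in Th17 cells of day 5 and 11.27, 11.25 and 11.33 in Th1 cells of day 5, then 11.57, 11.49, 11.38 and 11.46 in Th17 cells of day 15 and 11.44 and 11.36 in Th1 cells of day 15. The type differences were 0.13 (95% interval -0.09 to 0.35) and 0.08 (-0.15 to 0.32) on the log2 scale and did not pass the test (adjusted p = 0.736 and 0.822).

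Restimulation lowered S1pr1 in Th1 cells of day 5. Restimulated parts read 10.75, 10.72 and 10.42, all below the unstimulated ones, a 1.57-fold difference (log2 -0.65 ± 0.11, adjusted p = 0.000326). In the other settings restimulated parts read 11.25, 10.93 and 11.04 in Th17 cells of day 5, 11.16, 11.37, 11.23 and 11.24 in Th17 cells of day 15, and 11.01 and 11.13 in Th1 cells of day 15. Each of these groups lay below its unstimulated group without overlap, at -0.34, -0.23 and -0.32, but none passed the test (adjusted p = 0.0524, 0.0921 and 0.149). With the replicate number as a block, the Th17 difference of day 5 was called (adjusted p = 0.023, and 0.0269 to 0.0462 under 5 other settings). A Ccr7 difference of 0.66 in the same comparison was called too (adjusted p = 0.0294 with the block and 0.052 without). The labels do not say that equal numbers mark parts of 1 sample, and the correlations of same-numbered arrays cannot show it.

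Between the types, S1pr1 was 1.36-fold higher in restimulated Th17 cells of day 5 (log2 0.44 ± 0.11, adjusted p = 0.0154), and the day 15 difference did not pass (0.18, adjusted p = 0.501). The day 5 call was lost without Th17 sample 1 (0.35, adjusted p = 0.134) or Th1 sample 3 (0.34, adjusted p = 0.164), with median centring (adjusted p = 0.0635) in a model of the compared groups alone (adjusted p = 0.0832) and with the NK (0.43, adjusted p = 0.075) and the monocyte and neutrophil covariates (0.25, adjusted p = 0.407). The same size was found between days in restimulated Th1 cells, day 15 minus day 5 (0.44 ± 0.12, adjusted p = 0.0128), which shares the Th1 arrays of day 5 with it. It was lost without sample 3 of day 5 (0.33, adjusted p = 0.0891) or sample 2 of day 15 (0.38, adjusted p = 0.127), and with all arrays under median centring, array weights, the replicate block, the compared groups alone and the NK and erythroid covariates (0.26 to 0.46, adjusted p 0.0539 to 0.695).

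S1pr5 (chr9:21242917-21248443), an S1P receptor known in NK cells and effector CD8+ T cells, spread widely after transfer, over 4.18 log2 units. In unstimulated cells of day 5 it read 7.26, 8.52 and 7.90 in Th17 cells, against 9.01, 9.51 and 9.27 in Th1 cells. On day 15 it read 9.79, 9.04, 9.04 and 8.90 in Th17 cells, against 11.43 and 11.37 in Th1 cells. Both days showed Th17 arrays below all Th1 arrays, and the Th17 values of day 15 overlapped those of Th1 cells on day 5. The type difference was 2.59-fold on day 5 (log2 -1.37 ± 0.35, adjusted p = 0.0241) and 4.63-fold on day 15 (-2.21 ± 0.37, adjusted p = 0.000516), lower in Th17 cells. The increase with time was 2.47-fold in Th17 cells (1.30 ± 0.32, adjusted p = 0.0117) and 4.41-fold in Th1 cells (2.14 ± 0.39, adjusted p = 0.00035).

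Restimulated S1pr5 values were 7.28, 8.28 and 7.57 in Th17 cells of day 5, against 7.57, 8.68 and 8.09 in Th1 cells, and 9.37, 9.14, 8.96 and 9.16 in Th17 cells of day 15, against 9.44 and 11.07 in Th1 cells. The types overlapped on day 5, and the 2 Th1 parts of day 15 lay far apart. Neither type difference passed the test (-0.41, adjusted p = 0.821, and -1.10, adjusted p = 0.0838). The second turned on the Th1 parts, at -1.91 (adjusted p = 0.00802) without Th1 sample 1 of day 15 and -0.28 (adjusted p = 0.801) without Th1 sample 2. Restimulation itself gave a call in Th1 cells of day 5 (2.22-fold lower, -1.15 ± 0.35, adjusted p = 0.0301), lost without unstimulated sample 2 or 3 or restimulated sample 1 or 3 (-0.88 to -1.15, adjusted p up to 0.173) and, with all arrays, under cyclic loess, a trended prior and the NK covariate (-1.03 to -1.15, adjusted p 0.0609 to 0.0694). In Th1 cells of day 15 the same size did not pass (-1.15 ± 0.43, adjusted p = 0.109), and was -1.96 (adjusted p = 0.00422) without restimulated sample 2 and -0.33 (adjusted p = 0.774) without restimulated sample 1.

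Cx3cr1 (chr9:120048683-120068296), the receptor for fractalkine, gave the same order of the 8 group means after transfer, and its single arrays spread over 3.49 log2 units. In unstimulated cells of day 5 it read 8.27, 9.37 and 8.82 in Th17 cells, against 9.56, 9.73 and 9.92 in Th1 cells. On day 15 it read 9.84, 9.50, 9.59 and 9.32 in Th17 cells, against 11.44 and 11.54 in Th1 cells. Th1 cells of day 15 stood well above every other group. The type difference was 1.88-fold on day 5 (log2 -0.91 ± 0.22, adjusted p = 0.0165) and 3.82-fold on day 15 (-1.93 ± 0.23, adjusted p = 7.24e-06), lower in Th17 cells, and the increase with time was 1.67-fold in Th17 cells (0.74 ± 0.20, adjusted p = 0.023) and 3.39-fold in Th1 cells (1.76 ± 0.24, adjusted p = 1.5e-05).

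After restimulation Cx3cr1 read 8.06, 9.08 and 8.54 in Th17 cells of day 5, against 8.95, 9.29 and 9.34 in Th1 cells, with overlap. On day 15 it read 9.56, 9.29, 9.21 and 9.45 in Th17 cells, against 11.15 and 11.19 in Th1 cells, with none. The type difference was -0.63 ± 0.22 on day 5 (adjusted p = 0.141) and -1.79 ± 0.23 on day 15 (3.46-fold, adjusted p = 2.1e-05). Without Th17 sample 2 the day 5 difference was -0.89 (adjusted p = 0.0164). Restimulation gave differences of -0.18 to -0.54, none of which passed (adjusted p 0.113 to 0.584). The Th1 difference of day 5, -0.54, was called with array weights (adjusted p = 0.0151), in a model of the compared groups alone (adjusted p = 0.00875) and, at -0.70, with the monocyte and neutrophil covariate (adjusted p = 0.00787). With time, restimulated cells were 1.76-fold higher in Th17 (0.82 ± 0.20, adjusted p = 0.00923) and 3.94-fold higher in Th1 (1.98 ± 0.24, adjusted p = 4.88e-06).

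Other cells' markers stood beside these results. Th17 sample 1 of day 5, with the highest monocyte and neutrophil mean, had the lowest S1pr5 and Cx3cr1 of its unstimulated and restimulated groups. Without it, the unstimulated type differences of day 5 were -1.06 for S1pr5 (adjusted p = 0.183) and -0.63 for Cx3cr1 (adjusted p = 0.157). With the monocyte and neutrophil marker mean as a covariate, a setting chosen after seeing the data, they were -0.80 (adjusted p = 0.651) and -0.31 (adjusted p = 0.821). These 2 calls were also lost without Th17 sample 3 or without Th1 sample 2 or 3 (adjusted p 0.0557 to 0.115), S1pr5 with a trended, robust prior (adjusted p = 0.0759) and Cx3cr1 in a model of the compared groups alone (adjusted p = 0.0505). The increases in unstimulated Th17 cells fell short of the test without sample 1 of day 5 too (S1pr5 0.99, adjusted p = 0.107; Cx3cr1 0.46, adjusted p = 0.216), and Cx3cr1 also without sample 3 of day 5 or sample 1 or 3 of day 15 (0.65 to 0.74, adjusted p up to 0.0646), in a model of the compared groups alone (adjusted p = 0.083) and with the monocyte and neutrophil covariate (0.51, adjusted p = 0.0555). In restimulated Th17 cells the Cx3cr1 increase was 0.57 (adjusted p = 0.089) without sample 1 of day 5.

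The unstimulated Th1 samples of day 15, which held the highest S1pr5 and Cx3cr1, also held the highest NK marker means after transfer. NK markers were not alone in this. The group's median erythroid and platelet marker means, 9.46 and 7.73, were also the highest group medians after transfer. Dendritic cell marker means were 7.10 to 7.17 there and 7.12 to 7.19 in restimulated Th1 samples of day 15, against 6.58 to 6.96 on all other arrays after transfer. In the unstimulated comparison of day 15 all 5 NK markers were lower in Th17 cells, with Klre1, an NK cell lectin receptor, at 3.95 to 4.11 in Th17 and 5.66 to 6.04 in Th1 samples, and Ncr1, the NK activating receptor NKp46, at 5.68 to 6.01 in Th17 and 6.61 to 7.24 in Th1 samples. Klrb1c, which encodes NK1.1, lay at 6.56 to 6.84 in Th17 and 7.51 to 7.79 in Th1 samples, and the median gene mean was 7.18. With the NK marker mean as a covariate, a setting chosen after seeing the data in which few arrays separate type from marker, the unstimulated differences of day 15 were -1.75 for Cx3cr1 (adjusted p = 0.614) and -0.88 for S1pr5 (adjusted p = 0.999). Under that covariate the Cx3cr1 difference in restimulated cells was -1.67 (adjusted p = 0.0988), while Ccr7 stayed called at 3.12 and 2.39. Between days, the Th1 increases under it were 0.74 and 1.17 for S1pr5 and 1.57 and 1.84 for Cx3cr1, unstimulated and restimulated, none called (adjusted p 0.0953 to 0.941). With an erythroid covariate, whose values did not overlap between the days, no S1pr5 or Cx3cr1 difference between days was called (log2 0.47 to 2.40). Because that covariate nearly stands for the day, this fit cannot decide whether the differences between days remain.

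**Figure D2:**
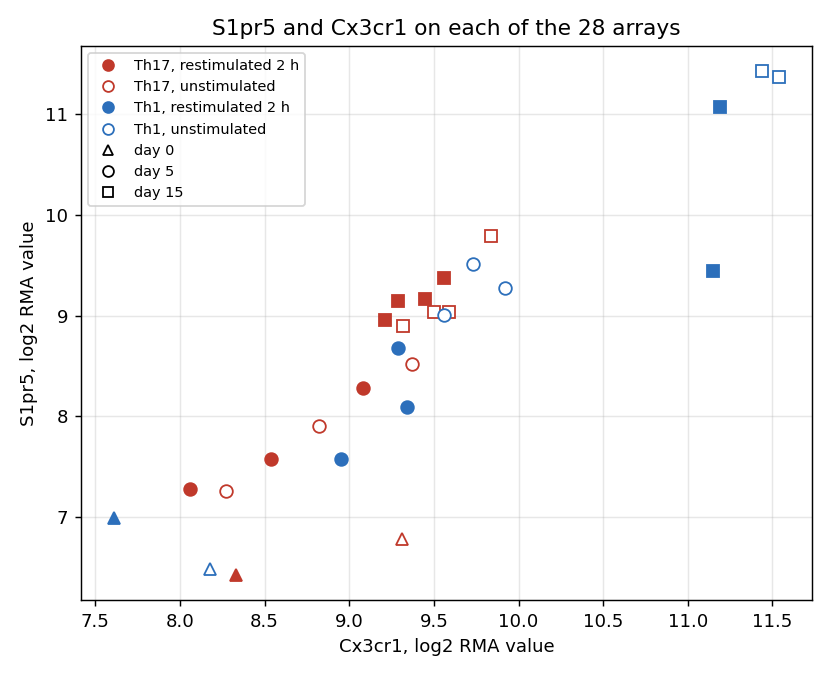
S1pr5 against Cx3cr1 (log2 RMA values) on each of the 28 arrays, with red for Th17, blue for Th1, filled symbols for restimulated parts and triangles, circles and squares for days 0, 5 and 15. Unstimulated Th1 cells of day 15 lie at the top right with S1pr5 at 11.37 and 11.43, and 1 restimulated Th1 part of that day has S1pr5 at 9.44 with Cx3cr1 at 11.15.

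Over the means of the 8 groups after transfer, S1pr5 and Cx3cr1 had a Pearson r of 0.96, and Klf2 and S1pr1 one of 0.94. Ccr7 had negative values with both effector receptors, an r of -0.35 to S1pr5 and -0.45 to Cx3cr1. These are descriptions of 8 points that share arrays and groups.

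Set together, the types differed at Ccr7, S1pr5 and Cx3cr1 more often than at Klf2 and S1pr1 by count of calls. In unstimulated cells of day 5, 3 of 5 were called, where 3.63% of all genes were, with Ccr7 higher (as were 2.31% of all genes) and S1pr5 and Cx3cr1 lower in Th17 cells (as were 1.32%). On day 15 the same 3 were called, against a background of 4.15%, of which 1.88% were higher and 2.28% lower. In restimulated cells 2 of 5 were called on day 5 (Ccr7 and S1pr1 higher, background 3.98%, with 2.95% higher and 1.02% lower) and 2 of 5 on day 15 (Ccr7 higher, Cx3cr1 lower, background 6.43%, with 3.45% higher and 2.98% lower).

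**Figure D3:**
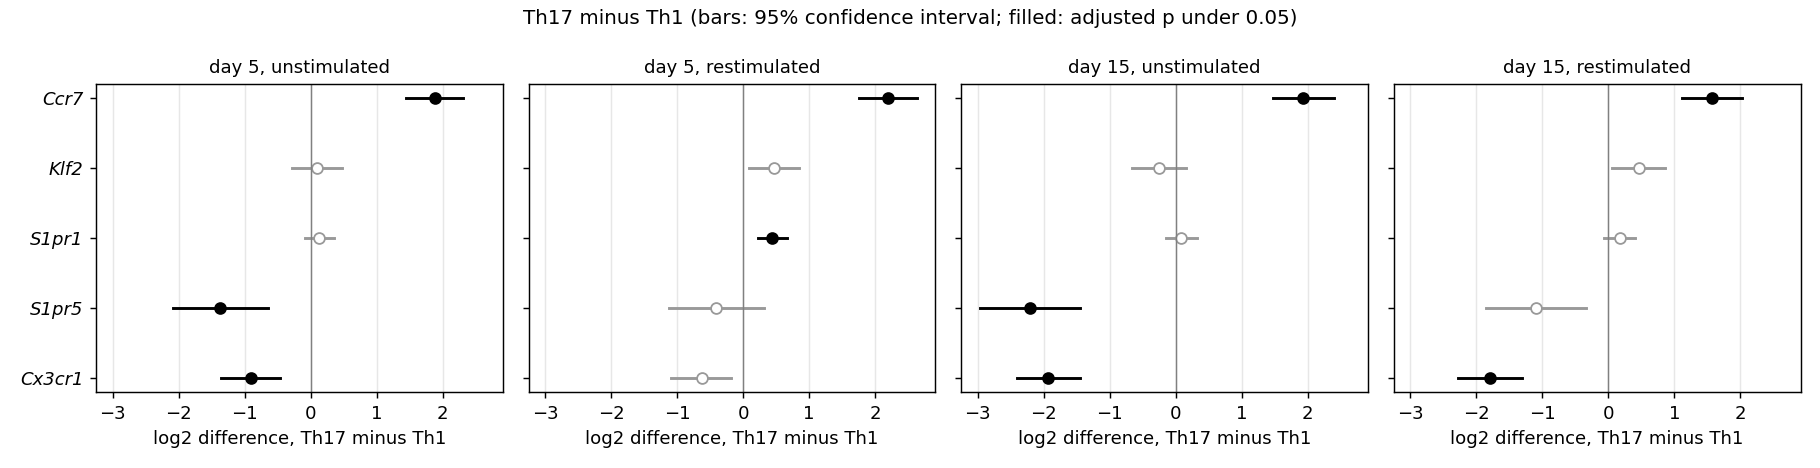
Log2 difference, Th17 minus Th1 (horizontal axis), of the 5 genes in each setting after transfer, with 95% confidence intervals from limma and filled circles for an adjusted p under 0.05. Ccr7 lies right of 0 in all 4 panels, at 1.57 to 2.19, and Cx3cr1 left of 0, at -0.63 to -1.93.

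Of the 5 gene lists read in the same comparisons, the T-bet and Zeb2 effector list had the most calls on day 15. Of 15 measured effector genes, 11 were lower in unstimulated Th17 cells of day 15 and 0 were higher, with a list median of -1.14 against 0.02 for all genes. The 5 NK markers were lower in the same comparison, with a median of -0.96. NK cells also express list genes such as Klrg1, Klrk1, Gzma, Gzmb, Prf1 and Nkg7. Whether NK cells or the transferred cells themselves carried the NK markers, and whether NK cells contributed to the list's values, was not tested. Zeb2, the repressor that acts with T-bet in effector cells, was lower, at -2.07 on the log2 scale (adjusted p = 2.73e-06), with Klrg1, a receptor of terminal effectors, at -2.55, the granule protease gene Gzma at -2.38 and the receptor gene Klrk1 at -2.19. In restimulated cells of day 15, 10 were lower, with a median of -0.99 against -0.03, where 2 of 5 NK markers were lower (median -0.56). On day 5, 5 were lower and 1 higher in unstimulated cells (median -0.32 against -0.04) and 6 lower and 1 higher in restimulated cells (median -0.39 against 0), where 1 of 5 NK markers was higher and 0 lower in each. Zeb2 was among those lower on day 5, at -1.70 and -1.37, and Klrc1 was the gene that was higher, at 0.89 and 0.99.

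The Foxo and Klf list had type calls on both days, and 0 of its 19 genes were called in the interaction of type and day in either condition. Of its 19 measured genes, 5 were higher and 0 lower in unstimulated Th17 cells of day 5 (median 0.08 against -0.04). Il7r, the interleukin 7 receptor of resting and memory T cells, was higher by 1.29 (adjusted p = 1.66e-05), Bach2, a repressor of effector genes, by 1.09, and Foxo1, the factor that maintains Klf2 and Ccr7, by 0.44 (adjusted p = 0.0207). In restimulated cells of day 5, 4 were higher and 0 lower (median 0.17 against 0), with Il7r at 1.42. On day 15 the unstimulated comparison called Klf3 alone, lower at -0.61 (median -0.09 against 0.02), and the restimulated one called Klf4 (1.76) and Lef1 (0.37) higher and Foxp1 (-0.62) lower (median 0.06 against -0.03).

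Genes of S1P handling and of lymph node entry had few type calls. Of 17 measured S1P genes, only Ptger4, a prostaglandin E2 receptor, was lower in all 4 settings, at -0.46, -0.51, -0.62 and -0.70, and in restimulated cells of day 15 Sphk1, a kinase that makes S1P, was lower too, at -1.05, with Mfsd2b (-0.53) and S1pr2 (-0.42). The other S1P receptors S1pr3 and S1pr4 did not pass the test in any type comparison, with S1pr4 at 0.00 to 0.36. Of 17 measured entry genes, which include the integrin Itgal and the chemokine receptor Cxcr4, 0 were called on day 5, Rap1b was lower in unstimulated (-0.33) and Rapgef1 in restimulated cells (-0.45) of day 15. List medians stayed between -0.16 and 0.04 for S1P genes and between -0.13 and 0.01 for entry genes, against -0.04 to 0.02 for all genes.

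In the tissue retention list of 13 measured genes, Itga1, a collagen-binding integrin of tissue-resident cells, was lower in Th17 cells in all 4 settings (-1.75, -1.83, -1.75 and -1.50). Ccr9, a gut homing receptor, was higher in unstimulated Th17 cells of day 5 (1.35, adjusted p = 0.0168). The counts were 1 higher and 1 lower in unstimulated and 0 and 2 in restimulated cells of day 5, then 0 and 3 in unstimulated and 0 and 6 in restimulated cells of day 15, where Xcl1, a chemokine gene, stood at -2.88 and Rgs16, which dampens chemokine receptor signals, at -2.18. The list medians were 0.03, -0.29, -0.41 and -0.76 in that order.

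All calls under restimulation were decreases of Klf2, S1pr1 or S1pr5. In Th1 cells of day 5, Klf2, S1pr1 and S1pr5 were lower, 3 of 5 genes, against a background of 13% (4.07% higher and 8.96% lower). In Th1 cells of day 15 Klf2 was called, 1 of 5, with 7.29% of all genes (2.65% higher and 4.63% lower), and in Th17 cells of day 5 Klf2 again, 1 of 5, with 8.07% (3.99% higher and 4.08% lower). In Th17 cells of day 15 none of the 5 was called by limma, although 17.5% of all genes were (6.49% higher and 11.1% lower), and S1pr1 was the only 1 of them at an unadjusted p under 0.05. Under the replicate block Th17 cells of day 5 had 3 of 5 called. The 8.07% belongs to the main model, with 1609 genes called. Over the alternatives run, 295 to 2304 of all genes were called in this comparison, so the 3 cannot be set against that share.

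**Figure D4:**
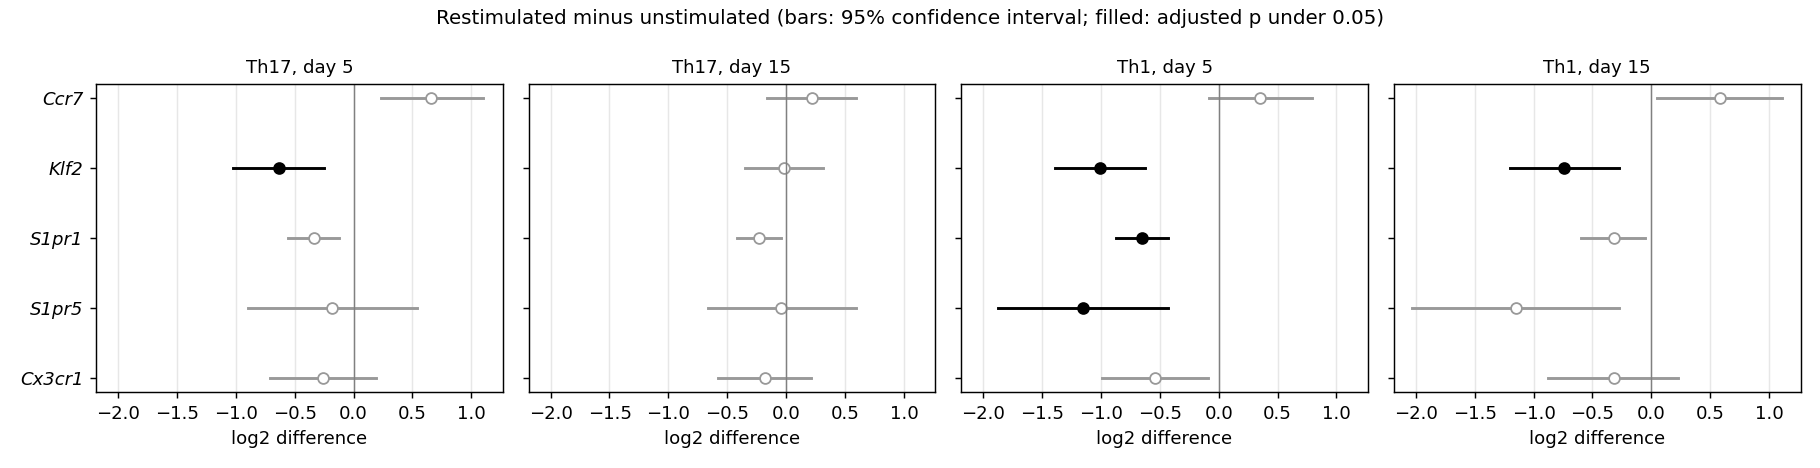
Log2 difference, restimulated minus unstimulated (horizontal axis), of the 5 genes for each type and day, with 95% confidence intervals from limma and filled circles for an adjusted p under 0.05. Klf2 lies at -1.01 in Th1 cells and -0.63 in Th17 cells of day 5, and at -0.02 in Th17 cells of day 15.

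Cd69, the early activation gene whose product removes S1PR1 from the surface, rose in all 4 settings. In Th17 cells of day 5 it read 12.46, 12.46 and 12.69 after restimulation, against 11.47, 11.18 and 11.36 without. In Th17 cells of day 15 it read 12.63, 12.49, 12.03 and 12.12, against 10.75, 10.42, 10.06 and 10.67. No groups overlapped, and the increases were 2.30-fold (log2 1.20, adjusted p = 0.000123) and 3.58-fold (1.84, adjusted p = 1.36e-08). In Th1 cells the increase was 2.79-fold on both days (1.48, adjusted p = 7.89e-06 and 0.000203). Unstimulated Cd69 was 1.81-fold lower on day 15 than on day 5 in Th17 cells (-0.86, adjusted p = 0.00123), and did not differ by the test in Th1 cells (0.17, adjusted p = 0.687). The limma interaction of type and day was called for unstimulated Cd69, at -1.03 ± 0.25 (Th17 minus Th1, adjusted p = 0.0456). In restimulated cells it was -0.39 and did not pass (adjusted p = 0.669).

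Around it, the S1P list gave 2 higher and 4 lower in Th1 cells of day 5, 1 and 1 on day 15, 1 and 2 in Th17 cells of day 5, and 1 and 4 on day 15, of 17 measured. Sgpp1, an S1P phosphatase, fell in all 4 (-0.49, -0.74, -0.47 and -0.67), and the receptor S1pr4 fell in Th1 cells of day 5 (-0.56, adjusted p = 0.0166). In the retention list Nr4a1, an immediate early gene of the T cell receptor, rose by 2.52 to 3.33 in all 4 settings, and Rgs1 by 1.00 to 2.05. Its counts were 5 higher and 0 lower, 7 and 0, 3 and 1, and 4 and 0 of 13, with medians of 0.40, 0.52, 0.20 and 0.04. The Foxo and Klf list had 5 higher and 1 lower, 1 and 0, 2 and 1, and 5 and 1 of 19, with medians of -0.11, -0.07, -0.03 and 0.07, and Klf4 rose by 2.38 in Th17 cells of day 15. Among entry genes the counts were 1 higher and 2 lower, 1 and 0, 0 and 2, and 1 and 1 of 17, with medians of -0.12 to -0.21, and Cxcr4, the receptor for CXCL12, rose except in Th17 cells of day 5 (0.82, 1.61 and 0.82). Effector genes were called at 0 higher and 3 lower, 0 and 0, 2 and 1, and 2 and 0 of 15, with medians of -0.12, -0.15, -0.14 and -0.01. The median of all genes in these comparisons lay between -0.08 and 0.03, and that of the S1P list between -0.21 and 0.05.

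On day 15 both effector receptors were higher than on day 5 in every setting. Unstimulated Th17 cells had 3 of 5 genes called (Ccr7, S1pr5 and Cx3cr1), against 9.64% of all genes (4.37% higher and 5.28% lower), and restimulated Th17 cells 2 of 5 (S1pr5 and Cx3cr1), against 13.5% (5.05% and 8.42%). Unstimulated Th1 cells had the same 2 called, against 16.1% (7.33% and 8.72%), and restimulated Th1 cells 4 of 5 (Ccr7 and S1pr1 as well), against 15.7% (7.07% and 8.64%). All calls were toward day 15. In restimulated cells S1pr5 rose 2.73-fold in Th17 (log2 1.45 ± 0.32, adjusted p = 0.00428) and 4.41-fold in Th1 (2.14 ± 0.39, adjusted p = 0.000379), the second ranging from 1.32 to 2.95 when 1 array was left out. Erythroid markers were higher on day 15 in all 4 settings, 3 of 3 measured, and 4 of 5 NK markers were higher in unstimulated and 3 of 5 in restimulated Th1 cells, against 0 of 5 in Th17 cells.

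**Figure D5:**
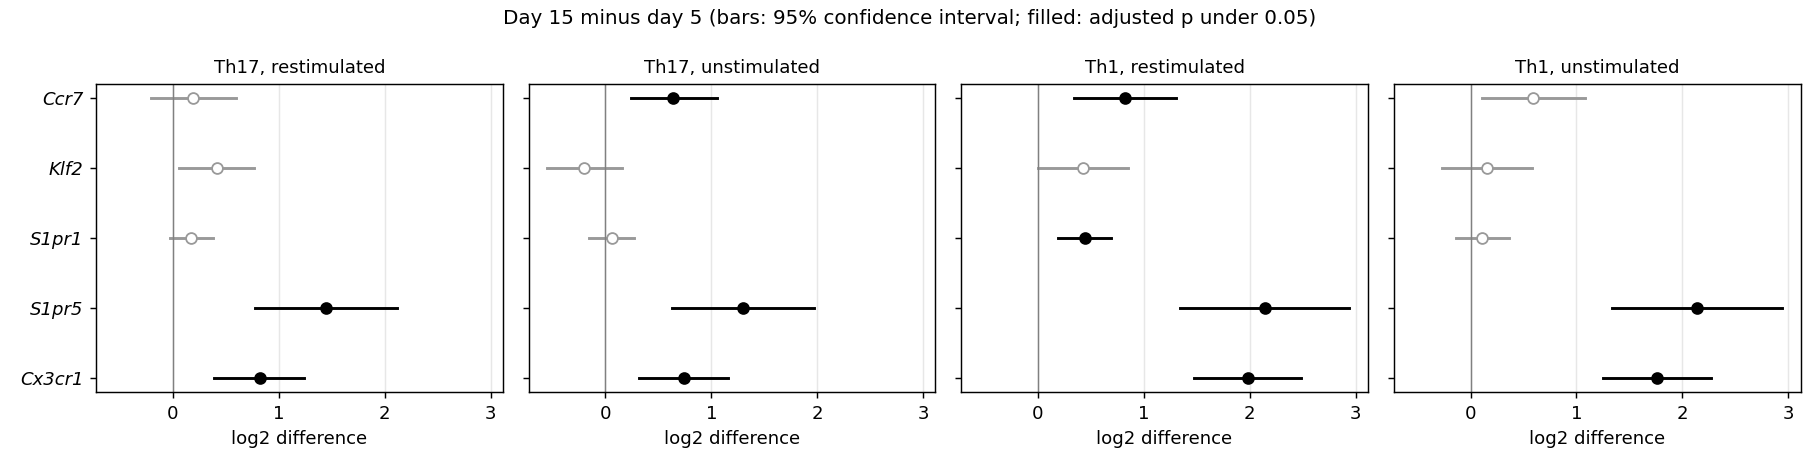
Log2 difference, day 15 minus day 5 (horizontal axis), of the 5 genes for each type and condition, with 95% confidence intervals from limma and filled circles for an adjusted p under 0.05. S1pr5 lies at 1.30 and 1.45 in Th17 cells and at 2.14 in both conditions of Th1 cells.

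Whether the time effect differed between the types was tested as an interaction. For Cx3cr1 it was -1.02 ± 0.32 in unstimulated cells (Th17 minus Th1, 95% interval -1.68 to -0.36, adjusted p = 0.135) and -1.16 ± 0.32 in restimulated cells (adjusted p = 0.0838). For S1pr5 it was -0.84 ± 0.51 (adjusted p = 0.53) and -0.69 ± 0.51 (adjusted p = 0.732). None of the 5 genes was called by limma in any of the 6 interactions (5 of 30 tests at an unadjusted p under 0.05), in which 1.14%, 0.943%, 0.0201%, 0%, 0.0251% and 1.17% of all genes were called. Without Th17 sample 1 of day 5 the Cx3cr1 interaction passed, at -1.30 (adjusted p = 0.0299) and -1.41 (adjusted p = 0.0358), and without restimulated Th1 sample 2 of day 15 1 of the 5 passed for type by restimulation on day 15.

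The effector list had calls in both directions with time in Th17 cells. In the unstimulated parts 3 of 15 rose (Klrk1 by 1.59, Klrg1 by 1.50, Zeb2 by 0.86) while 4 fell (Gzmb -1.74, Prdm1 -0.97, Prf1 -0.95, Gzma -0.80), with a median of -0.16 against 0.05 for all genes. Restimulated Th17 cells likewise had 3 higher and 4 lower (median -0.03 against -0.05). In Th1 cells 5 rose and 0 fell in each condition (medians 0.22 and 0.33 against 0), led by Klrk1 at 2.58 and 3.10. NK marker medians rose there by 0.89 and 0.71, against -0.20 and -0.24 in Th17 cells. Whether NK cells contributed to these list values was not tested. Of retention genes, Itga1 rose in all 4 settings (0.94, 1.40, 0.94 and 1.07), and Ccr9 fell in Th17 cells (-1.68 and -1.41). The retention counts were 2 higher and 4 lower and 2 and 3 in unstimulated and restimulated Th17 cells, and 5 and 0 and 4 and 0 in Th1 cells, of 13, with medians of -0.16, -0.14, 0.16 and 0.14.

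Mfsd2b, an S1P exporter of red blood cells and platelets, rose in all 4 settings, by 2.14 and 0.87 in unstimulated and restimulated Th17 cells and by 2.11 and 1.50 in Th1 cells, on the day when erythroid markers were also higher. With it, the S1P list had 3 higher and 1 lower in unstimulated and 1 and 0 in restimulated Th17 cells, and 3 and 0 and 1 and 0 in Th1 cells, of 17, with medians of -0.07 to 0.09. Among entry genes Fut7, which builds selectin ligands, rose in all 4 settings (0.41, 0.62, 0.67 and 0.55) and was the only 1 called in 3 of them, with 3 of 17 called, all higher, in restimulated Th1 cells (list medians -0.04 to 0.10). The Foxo and Klf list had 1 higher and 0 lower and 2 and 1 in Th17 cells, and 5 and 0 and 3 and 0 of 19 in Th1 cells, where Il7r rose by 1.08 and 1.19 (list medians -0.02 and 0.05 in Th17 cells and 0.20 and 0.25 in Th1 cells).

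The day 0 cultures gave 1 array each, so their values carry no test. Klf2 read 7.40 in restimulated and 7.11 in unstimulated Th17 cultures, 7.87 in restimulated and 7.69 in unstimulated Th1 cultures, against 9.98 to 11.46 after transfer. S1pr1 read 9.16, 10.05, 6.68 and 9.18 in the same order, against 10.42 to 11.65 after transfer, and S1pr5 read 6.42, 6.78, 6.99 and 6.48, against 7.26 to 11.43. For these 3 genes all 4 cultures lay below all 24 arrays after transfer, as for 2.6% of all genes. Ccr7 instead was high in the cultures of both types, at 12.02, 11.93, 11.47 and 11.57, and the low Ccr7 of Th1 cells was seen only after transfer. Cx3cr1 read 8.33, 9.31, 7.61 and 8.18, with the unstimulated Th17 culture 2.19-fold above the Th1 culture.

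Restimulated Th1 cultures had 5.67-fold less S1pr1 than unstimulated ones, and the Th17 cultures 1.85-fold less. After restimulation S1pr1 was 5.57-fold higher in the Th17 than in the Th1 culture. At least 2-fold differences were shown by 1 of the 5 genes between the types in unstimulated (Cx3cr1, background 4.53%) and restimulated cultures (S1pr1, background 4.45%), and with restimulation by 0 of 5 in the Th17 (background 2.55%) and 1 of 5 in the Th1 cultures (S1pr1, background 9.41%). The cultures also held other cells' transcripts. The mean of 4 platelet markers was 10.20 to 10.92, against 6.17 to 8.06 after transfer, that of 10 dendritic cell markers 7.74 to 8.14, against 6.58 to 7.19, and that of monocyte and neutrophil markers 8.72 and 9.14 in the Th17 and 6.76 and 7.06 in the Th1 cultures. Their part in the day 0 values was not tested.

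Ordered by mean over the 12 conditions, Ccr7 ran from restimulated Th17 cultures of day 0 at 12.02 down to unstimulated Th1 cells of day 5 at 9.09, with all 6 Th17 conditions and both Th1 cultures above the 4 Th1 groups after transfer. Klf2 ran from unstimulated Th1 cells of day 15 at 11.40 to the unstimulated Th17 culture at 7.11, and the 5 highest groups overlapped each neighbour. S1pr1 ran from unstimulated Th17 cells of day 15 at 11.48 to the restimulated Th1 culture at 6.68. S1pr5 and Cx3cr1 both had unstimulated and then restimulated Th1 cells of day 15 on top, at 11.40 and 10.26 for S1pr5 and 11.49 and 11.17 for Cx3cr1. The next 3 groups of both genes overlapped each other in turn: unstimulated Th1 cells of day 5, then unstimulated and restimulated Th17 cells of day 15.

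The genes most like each member over the 12 condition means, by Pearson r among genes above the median level, were as follows. For Ccr7 they were Ifngr2 (0.944), Igf1r (0.936) and Igfbp4 (0.91). For Klf2 the highest r were with Dtx1 (0.995), Rap1gap2 (0.989) and Gabpb2 (0.988), and for S1pr1 with Stk10 (0.99), Mbd2 (0.988) and Sit1 (0.987). A high r does not mean a change of like size. Condition means ran only from 10.23 to 10.81 for Gabpb2, against 7.11 to 11.40 for Klf2. For Mbd2 they ran from 11.35 to 12.10, against 6.68 to 11.48 for S1pr1. For S1pr5 the nearest were Dock5 (0.98), Ifitm10 (0.976) and Arnt2 (0.969), and for Cx3cr1 Cpne7 (0.961), Plcb3 (0.947) and Rnf43 (0.926). Over the 8 groups after transfer, where the day 0 contrast is absent, r was 0.99 for Ccr7 with Ifngr2 and 0.991 for S1pr5 with Ifitm10, but 0.799 for Klf2 with Rap1gap2.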

How the data were processed

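Gene expression was measured in 28 samples on 1 Affymetrix mouse array each. The deposited values are log2 RMA values that the authors made in Affymetrix Expression Console, per the submitters' processing notes, with software versions and build not given in the sources used here. This method subtracts background, equalises array distributions and summarises probes, which compresses differences of dim genes. Nothing says if all arrays were normalised in 1 run. No further normalisation was applied.

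Of 35556 probe sets, 21789 carried 1 symbol and were used, 1621 carried several and 12146 none here. The gene table held the identifiers of 21698, with 0 symbols updated. The probe set with the highest mean was taken for the 999 genes with several, leaving 19938 genes. Within groups, array pairs correlated at 0.987 to 0.998.

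The 24 arrays after transfer entered a single limma model with a mean for each of the 8 groups and 16 residual degrees of freedom (limma 3.58.1, R 4.3.3). The 12 pairwise comparisons and 6 interactions were adjusted by Benjamini-Hochberg over all genes, and a gene was called at an adjusted p under 0.05. The day 0 arrays did not enter it. The fit was tested on simulated data. The 5 genes, the 5 pathway lists, the marker lists and the motifs were chosen with earlier results of these data known. Named besides the 5 genes are Cd69, up to 4 called genes each way of a list per comparison, and the 3 genes of most like pattern, and beyond this rule markers and genes of counts that were singled out after their values were seen.

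The labels number samples within each group without saying that numbers pair them. Over 9969 genes, the deviations of arrays that share a number were correlated. On day 5 all 3 pairs lay above 0.1 for restimulation of Th17 cells (0.39 to 0.48) and of Th1 cells (0.16 to 0.21). The same held for restimulated Th17 against Th1 cells (0.21 to 0.48), and for restimulation of Th1 cells on day 15 (0.12). Arrays that cannot be parts of 1 sample correlated too, at 0.38 and 0.65 for restimulated Th1 cells of day 15 against day 5. The check thus cannot show that equal numbers mark parts of 1 sample. Alternatives were a model of the compared groups alone, genes above the median, cyclic loess, median centring, the mean of probe sets, a trended and robust prior, array weights, the replicate block, a random block for sample parts, and each array left out in turn, where a lone remaining array of a group was taken to vary like the others. Added after seeing the data were 3 marker covariates and a fit that drops the pair of parts of Th17 sample 1 (day 5).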

Additional observations from a re-analysis of the deposited data

Results flagged for a closer look

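S1pr5 in unstimulated Th17 sample 1 of day 15, at 9.79, stood apart from the other 3 samples of its group, at 8.90 to 9.04. Chance marks about 1 group in 20 in this way, and the restimulated part of the same number, at 9.37, was also the highest of its group. On day 0, restimulation went opposite ways in the 2 types for Ccr7, at 0.09 in the Th17 and -0.10 in the Th1 culture, and for S1pr5, at -0.36 in the Th17 and 0.52 in the Th1 culture. These rest on single arrays and the differences were not tested.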

How the results depend on the processing

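Directions and calls of the 5 genes were compared with the values above under 9 planned settings, 540 gene comparisons in all, of which 500 kept both, 21 lost and 14 gained a call and 5 turned direction. With 1 array left out, 298 of 360 kept both, 40 lost and 12 gained a call and 10 turned. Of 205 under the 4 settings added after seeing the data, 149 kept both, 36 lost and 4 gained a call and 16 turned. The cause was not tested for any of them. A marker covariate also takes up what the groups themselves differ by, so a call lost under it does not show that the marker cells carried it. Under cyclic loess and median centring, the rescalings run, the median gene moved by under 0.1 log2 units. Genes near the array's low end and groups of 2 arrays limit what can be seen.

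The count of the 5 genes called for Th17 against Th1 cells was 1 on day 5, unstimulated, without both parts of Th17 sample 1 and with the monocyte and neutrophil covariate, and 1 on day 5, restimulated, under these, median centring, the compared groups alone and the NK covariate. It was 1 in both day 15 comparisons with the NK covariate. For restimulation it was 0 in Th1 cells of day 15 under cyclic loess, the trended prior, array weights, the compared groups alone and the NK and erythroid covariates. In Th17 cells of day 5 it was 3 with genes above the median, the random block and the replicate block, 2 with cyclic loess and the trended prior, and 0 without both parts of sample 1. Between days it was 0 in Th1 cells, in both conditions, with the NK and erythroid covariates, and 2 in restimulated Th1 cells under array weights, the replicate block and the compared groups alone. In Th17 cells it was 0 in both conditions with the erythroid covariate, and 0 unstimulated without both parts of sample 1. For the interaction of type and day it was 1 unstimulated under array weights, and 1 in both conditions without both parts of sample 1 and with the monocyte and neutrophil covariate.

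With 1 array left out, the count ran from 1 to 3, 1 to 3, 3 to 3 and 2 to 3 for the types (day 5 unstimulated and restimulated, then day 15). It ran from 2 to 3 and 0 to 2 for restimulation of Th1 cells on days 5 and 15, and from 0 to 1 and 0 to 0 in Th17 cells. Between days it ran from 2 to 3 and 2 to 5 in Th1 cells, unstimulated and restimulated, and from 0 to 2 and 1 to 2 in Th17 cells. For the interactions it ran from 0 to 1 at most.

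In the day 5 comparisons named above, whose same-numbered arrays all correlated above 0.1, the replicate block changed calls in only 1. It added Ccr7 and S1pr1 for restimulation of Th17 cells on day 5 (adjusted p = 0.0294 and 0.023). Restimulated and unstimulated parts of day 15 also come from divided samples. Whether equal numbers mark the same sample is not stated for either day. The main tests of restimulation treated the parts as independent.

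Directions turned as follows. Restimulation of Th17 cells on day 15 gave 0.04 and 0.02 for Klf2 and 0.03 and 0.01 for S1pr5 under cyclic loess and median centring, and S1pr1 between days in unstimulated Th17 cells was -0.02 under median centring. With the NK covariate, Klf2 was -0.07 and 0.62 for the types in unstimulated cells of days 5 and 15, Klf2 and S1pr5 were 0.06 and 0.09 for restimulation of Th17 cells on day 15, Ccr7 was -0.66 and -0.05 and Klf2 -0.77 and -0.21 between days in unstimulated and restimulated Th1 cells, and the interaction of type and day for S1pr5 was 0.75 unstimulated. With the monocyte and neutrophil covariate, Klf2 and S1pr1 were -0.08 and -0.12 for the types in unstimulated cells of day 5, S1pr5 0.03 in restimulated cells of day 5, S1pr1 -0.09 in unstimulated cells of day 15, and Klf2 0.04 for restimulation of Th17 cells on day 15. With the erythroid covariate, S1pr1 was -0.09 and -0.10 between days in unstimulated Th1 and Th17 cells and Klf2 0.24 in unstimulated Th17 cells. With 1 array left out, restimulation of Th17 cells ran from -0.50 to 0.13 for S1pr5 and from -0.54 to 0.01 for Cx3cr1 on day 5, and on day 15 from -0.13 to 0.16 for S1pr5 and from -0.08 to 0.03 for Klf2, which turned with 3 of the arrays left out. Klf2 between days in restimulated Th1 cells ran from -0.11 to 0.97, and between the types in restimulated cells of day 15 from -0.08 to 1.00.

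Counts over all genes moved more. For the types they were 724 (290 to 2159 over the alternatives) and 793 (418 to 1176) on day 5, unstimulated and restimulated, and 828 (48 to 1581) and 1282 (221 to 2391) on day 15. For restimulation they were 1609 (295 to 2304) and 3499 (2204 to 5016) in Th17 cells of days 5 and 15, and 2597 (1350 to 5615) and 1453 (42 to 2647) in Th1 cells. Between days they were 1923 (1082 to 3348) and 2685 (1570 to 3138) in Th17 cells, unstimulated and restimulated, and 3201 (75 to 5059) and 3132 (121 to 3716) in Th1 cells. For the interaction of type and day they were 227 (2 to 1319) unstimulated and 188 (2 to 743) restimulated. Counts of the 5 genes under a setting are therefore not comparable with the shares of the main model.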
